A study of Mus musculus with 6 samples.

Results

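Fibroblasts gated on Pthlh, Cst6, Aldh3a1 and Stk32b are cells of the mouse aortic root and ascending aorta that carry Dcn, the gene of the matrix proteoglycan decorin, with little Myh11, the smooth muscle myosin, and with transcripts from that small set of genes, most often Pthlh. They were chosen by their own measured genes. A member passed the quality filter, held at least 20 Dcn and fewer than 5 Myh11 UMIs (unique molecular identifiers, each marking 1 captured transcript) per 10000, and had a UMI of at least 2 of 4 gate genes, Pthlh, Cst6, Aldh3a1 and Stk32b. It also had a UMI of at most 2 of 6 cartilage gate genes, Chad, Comp, Cilp2, Ucma, Chil1 and Angptl7. The rule found 938 members among 24972 cells that passed the filter, of which 13043 lay under the Dcn and Myh11 limits. The other 12105 cells under the limits are the comparison throughout, and the gate genes, Dcn and Myh11 are never counted as results.

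The study compared aortas of control mice with those of a mouse model of Loeys-Dietz syndrome (LDS). The labels list 4 control mice, 2 of them with the genotype Tgfbr1+/+ and the others Tgfbr1+/+; Wnt2CRE; EGFP-L10a, and 2 LDS mice with the genotype Tgfbr1M318R/+, all of them female, on a 129 background and aged 16 weeks. The aortas were digested with collagenase and elastase, live nucleated cells were sorted by their dyes, and 1 library per mouse was made with 10x Genomics 3' v3 chemistry. Barcodes carry their library's number, 1 to 6, as a suffix, and nothing in the files pairs a number with a mouse. Genotypes were therefore not compared and no test was run. Values are given library by library, or as lowest, median and highest. The study's methods say that some mice bore the tracer, and the labels name it for 2. Libraries 1 to 4 held 263, 201, 157 and 258 GFP UMIs and libraries 5 and 6 held 8 and 6, so 4 libraries held at least 100. In members a GFP UMI was found in 12, 12, 2, 8, 0 and 1 cells of libraries 1 to 6. After the filter the libraries held 25659883, 28752044, 34679925, 38105145, 34824983 and 18218282 UMIs. Of 27654 barcode sequences, 1612 occurred in more than 1 library, and 0 of them did so among members.

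Pthlh encodes parathyroid hormone-related protein (PTHrP), a secreted peptide that signals to nearby cells through the receptor Pth1r. In growing cartilage it holds chondrocytes back from maturing, and in the vessel wall it relaxes smooth muscle. Cst6 encodes cystatin E/M, a secreted inhibitor of legumain and of lysosomal cysteine proteases, Aldh3a1 an enzyme that oxidises aldehydes, and Stk32b a serine/threonine kinase.

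Members were found in every library. They were 180 of 1399 cells under the limits in library 1, 204 of 1850 in library 2, 176 of 2983 in library 3, 195 of 3968 in library 4, 81 of 1981 in library 5 and 102 of 862 in library 6. The shares were 12.9% (95% exact binomial interval, 11.2 to 14.7), 11.0% (9.64 to 12.5), 5.90% (5.08 to 6.81), 4.91% (4.26 to 5.63), 4.09% (3.26 to 5.06) and 11.8% (9.75 to 14.2), with a median of 8.46%. Libraries 1, 2 and 6 had more than 10% and libraries 3, 4 and 5 fewer than 6%, and the intervals of these sets do not overlap. Depth entered the gate, since members held a median of 8142 UMIs and the other cells 5978. With cells thinned to 3000 UMIs, and 150, 74, 257, 374, 245 and 45 shallower cells left out, the shares were 4.64%, 3.38%, 2.42%, 1.75%, 1.96% and 2.69%, which left library 1 highest and libraries 4 and 5 lowest. The gap between the sets nearly closed, with 22 of 817 cells in library 6 and 66 of 2726 in library 3. No intervals were formed for the thinned shares, so the separation of the sets holds at full depth only.

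The 4 gate genes were detected unequally among members. Pthlh had a UMI in 75.4% of members, Aldh3a1 in 56.9%, Stk32b in 47.7% and Cst6 in 34.3%, so most members were chosen without Cst6. The same genes had a UMI in 9.81%, 7.62%, 6.26% and 3.78% of the other cells, and in 0.447%, 0.224%, 0.224% and 0% of 447 leukocytes, which held a median of 5452 UMIs and serve as background. The leukocyte value for Cst6 is 0 of 447 cells. Pthlh reached 253, 198, 197, 169, 180.0 and 236 UMIs per 1000000 UMIs (counts per 1000000, CPM) in the members of libraries 1 to 6. The pair Pthlh and Aldh3a1 alone admitted 297 members, Pthlh and Stk32b 187, and Pthlh and Cst6 115, while 123 members held at least 3 gate genes.

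Cytl1, a secreted cytokine-like protein known from cartilage, is the 1 marker of these cells that the rule did not use. It had a UMI in 61.8% of members, 23.6% of the other cells and 3.58% of leukocytes, and in 51.9%, 19.8% and 1.33% of the 926, 10972 and 377 cells deep enough to be thinned to 3000 UMIs. Its level in members was 3600, 1842, 2066, 1465, 2184 and 1141 CPM in libraries 1 to 6, against 1511, 749, 411, 531, 953 and 336 CPM in the other cells. Cytl1 was higher in members in each of the 6 libraries, with a median log2 ratio of 1.38 (lowest 1.20, highest 2.33). Cytl1 had been named as a marker together with the gate genes, so its ratio is a description and not a finding on new data.

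**Figure D1:**
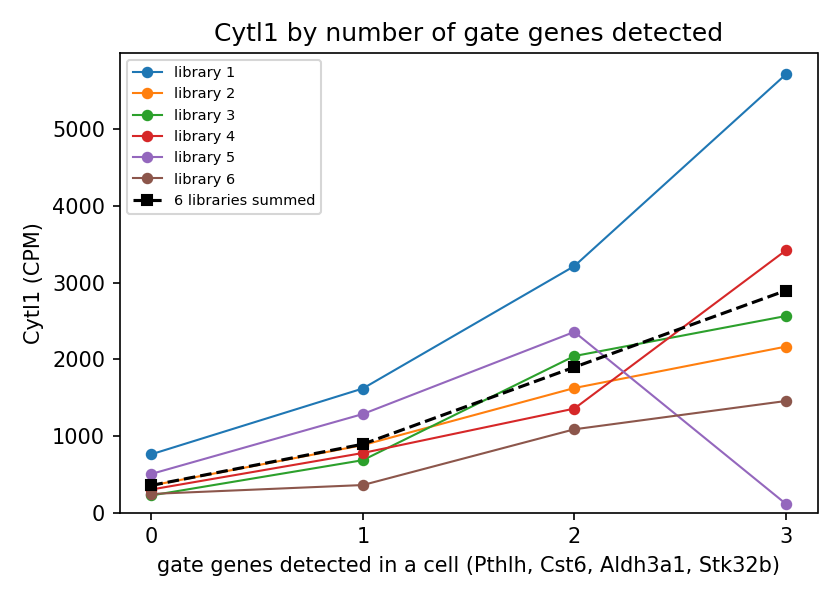
Cytl1 in CPM against the number of gate genes detected in a cell, for cells under the limits with at most 2 cartilage gate genes; each line is 1 library and the dashed line is the sum of all 6. From 0 to 2 gate genes the level climbed in all 6 libraries, and the low point of library 5 at 3 gate genes rests on 4 cells.

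The level of Cytl1 followed the number of gate genes on both sides of the threshold. Cells with 0, 1, 2 and 3 gate genes and at most 2 cartilage gate genes (8392, 3047, 815 and 112 cells) had 354.5, 892, 1896 and 2895 CPM of Cytl1. Summed over their cells, those just outside the gate thus lay between cells with 0 gate genes and members, which does not show whether single cells were intermediate. Their median depth also rose, from 5573 to 6736, 8011 and 9163 UMIs, and its part in the gradient was not tested, although Cytl1 kept a log2 ratio of 1.27 when the other cells were weighted to the members' depth. Pth1r ran the other way, from 32.4 to 24.1, 13.9 and 6.55 CPM. On the cartilage side, cells with at least 2 gate genes and 0, 1, 2 or 3 cartilage gate genes had 1589, 2349, 2445 and 3787 CPM of Cytl1 summed over libraries. No step was a rise in every library. The level fell from 0 to 1 in libraries 5 and 6, from 1 to 2 in libraries 2, 3 and 4, and from 2 to 3 in libraries 3, 4 and 6, which held 3, 2 and 2 of the 27 cells with 3, while library 5 held 0.

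Few genes other than Cytl1 were raised, and more were lower. Of 5688 genes with a mean of at least 20 CPM over the groups, 6 (0.105%) were at least 2-fold higher in members by the median with 1 direction in all 6 libraries, and 63 (1.11%) were at least 2-fold lower by the same rule. The median log2 ratio of all genes tested was 0.03. Without library 1 the higher genes were 11, the former 6 with Igfbp5, Pex5l, Hhip, Dio2 and Epha3. With the other cells weighted to the members' depth the higher genes were again 6, and Hhip, Dio2 and Epha3 took the place of S100a4, Gm17455 and Plaur. At any fold, 669 genes (11.8%) were higher in all 6 libraries and 471 (8.28%) lower, so the lower genes outnumbered the higher ones only among the larger differences.

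Prss12, the secreted protease neurotrypsin, had a median log2 ratio of 1.55, with 115, 116, 111, 134, 36.3 and 186 CPM in members and 93.9, 35.6, 41.8, 39.9, 20.0 and 50.3 CPM in the other cells. Its call was lost with at least 3 of the 4 gate genes, and with the other cells weighted to the members' groups of similar cells, described below. Over the alternatives its ratio ranged from 0.50 to 1.91. Prss12 overlaps the annotated gene Gm43590 on the same strand and Gm35065 on the opposite one.

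S100a4, a calcium-binding protein often used to mark fibroblasts, had a log2 ratio of 1.17, with 297, 390.4, 374, 195, 144 and 404 CPM in members and 173, 161, 164, 87.2, 87.9 and 174 CPM in the other cells. It overlaps Gm42674 on the same strand. Gm17455, a predicted gene inside Cdh23 on the opposite strand, had 1.14, and Plaur, the receptor of the protease urokinase, had 1.05. Plaur fell below the 2-fold limit, to 0.82, without any 1 of libraries 2, 3 and 6. Just under the limit lay Epha3, an ephrin receptor, at 1.00, Igfbp5, which binds insulin-like growth factors, at 0.96, Dio2, which activates thyroid hormone, at 0.96, and Ltbp2, which binds microfibrils, at 0.93, each higher in all 6 libraries. Igfbp5 stood out by its level, 1519 to 3099 CPM in members (median 2171) against 857 to 1736 CPM in the other cells (median 1015).

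**Figure D2:**
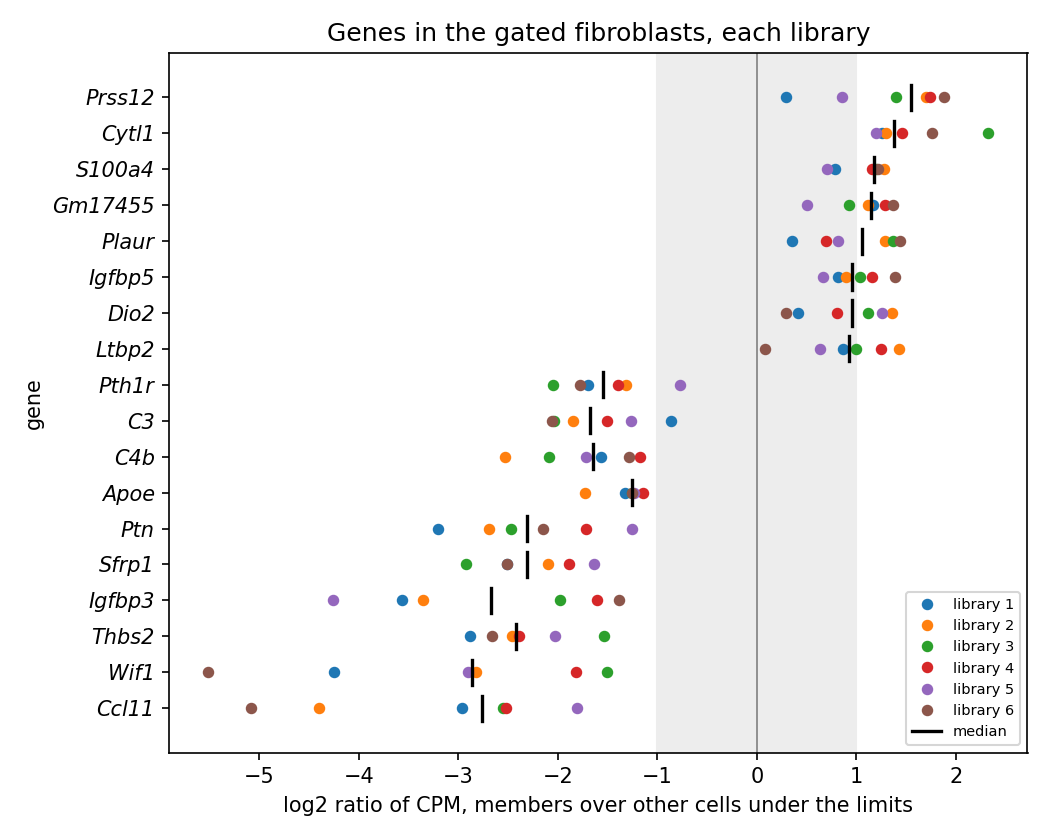
Log2 ratio of CPM, members over the other cells under the limits, for Ptn and genes named in the text; each point is 1 library, the bar is the median, and the grey band marks less than a 2-fold difference. Prss12 lies at 1.55, Cytl1 at 1.38 and Wif1 at -2.86.

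The lowest ratios were those of a matrix protein, MHC class II genes, a Wnt inhibitor and a chemokine. Coch, Wif1, H2-Eb1 and H2-Aa were also among the leading genes of group 11, 1 of 17 groups of similar cells found without the gate genes (neighbour groups), which held 713 cells under the limits, 2.38% of them members. Coch, an extracellular matrix protein, had the lowest ratio, -3.80, from 0 to 20.3 CPM in members and 21.4 to 148 CPM in the other cells. It fell under the minimum level without any 1 of libraries 2, 4 and 6. Wif1, a secreted Wnt inhibitor, reached 8.26, 47.7, 33.5, 47.5, 15.6 and 6.80 CPM in members of libraries 1 to 6 and 159, 337, 95.4, 167, 117 and 316 CPM in the other cells, a median log2 ratio of -2.86. Sfrp1, another Wnt antagonist, reached 56.5, 98.5, 46.3, 118, 145 and 63.8 CPM against 323, 422, 352, 437, 451 and 364.5 CPM, a ratio of -2.31. The groups did not overlap for either gene. Among the 15 Wnt genes measured 0 were called higher and 3 lower (Wif1, Sfrp1 and Rspo3), where 0.105% and 1.11% of all genes tested were, and the median of the list was -0.21, below 0 in each library. Rspo3, which amplifies Wnt signals, was at -1.09 and lost its call without any 1 of libraries 2, 4, 5 and 6, with ratios of -0.90 to -1.28.

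Chemokines, complement and inflammation genes formed the list with the lowest median, -0.55 over 28 genes measured, of which 0 were called higher and 6 lower, beside 0.105% and 1.11% of all genes tested. Ccl11, the chemokine eotaxin, had 1.70 to 45.0 CPM in members (median 11.0) and 22.3 to 158 CPM in the other cells (median 87.6), with a ratio of -2.76. C3, the central complement protein, reached 97.2 to 263 CPM in members (median 205) against 321 to 955 CPM (median 597), with a ratio of -1.68, and C4b had -1.64. In all 6 libraries the median of this list lay below 0, and 14 of its genes were lower in every library and 2 higher, against 8.28% and 11.8% of all genes tested. Cd74, the invariant chain of MHC class II molecules, was also lower, at -2.77, as were the class II genes H2-Eb1 and H2-Aa at -3.08 and -2.75, which fell under the minimum level without any 1 of libraries 2, 4 and 6. Leukocyte markers summed to 9.64, 6.18, 6.42, 9.51, 3.46 and 9.36 CPM in members of libraries 1 to 6 and 9.62, 12.01, 17.8, 30.3, 14.6 and 36.6 CPM in the other cells, and the part of leukocyte RNA in the class II values was not tested.

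Among 36 adventitial fibroblast genes measured, 0 were called higher and 8 lower, where 1.11% of all genes tested were called lower, with a list median of -0.21. Of the 8, Ccl11, C3 and Cxcl12 also stand in the chemokine list. Gpx3, an extracellular glutathione peroxidase, was at -1.52, Lpl, the lipase that clears circulating triglycerides, at -1.71, and Penk, the precursor of enkephalins, at -2.16. The general adventitial genes Pi16 (0.23), Cd34 (0.28) and Pdgfra (0.03) were not lower, but Ly6a (-0.51), Ly6c1 (-0.41) and Clec3b (-0.21) were lower in every library and Dpt (-0.24) in 5 of 6. Of the 36 genes, 24 had a median below 0, as did 42.4% of all genes tested. In every library 15 were lower and 7 higher, against 8.28% and 11.8% of all genes tested. Apoe, which carries lipids, was at -1.26. Igfbp3 fell by 2.67 on the log2 scale, with 15.6 to 102 CPM in members (median 29.2) against 121 to 301 CPM (median 281), although the median moved between -1.98 and -3.36 as single libraries were left out. Members thus paired low Igfbp3 with high Igfbp5 within the IGF list, whose 11 genes measured had a median of -0.03 with 0 called higher and 1 lower.

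Pth1r, the receptor of PTHrP, was lower in members than in the other cells. It reached 6.88, 18.99, 7.13, 13.2, 20.8 and 11.9 CPM in members of libraries 1 to 6 and 22.5, 47.2, 29.6, 34.7, 35.6 and 41.2 CPM in the other cells, a median log2 ratio of -1.54. Library 5 came closest, and the groups did not overlap. Summed over libraries, members with a Pthlh UMI (707 cells) had 9.46 CPM and those without (231 cells) 23.96 CPM. Members without Pthlh passed the gate by the other gate genes, so these sets were selected differently and their contrast is a description only. Cells of the same neighbour group shared the low level in part. Within group 1, the group with the most members, Pth1r was at 7.78 CPM in members and 9.87 CPM in the other cells, a ratio of -0.23. Within group 6 it was at 0 CPM in members and 7.39 CPM in the other cells, higher in 1 of 5 libraries. The ratio there was -3.09, with library ratios from -4.02 to 0.14. Pth1r lay under the minimum level within both groups, so these ratios rest on few UMIs and do not measure a difference. Pth1r overlaps Myl3 on the opposite strand. Of 23 genes measured in the PTHrP and hedgehog pathway, 0 were called higher and 1, Pth1r, lower, where 0.105% and 1.11% of all genes tested were. The list's median was 0.10, beside 0.03 for all genes tested. Adcy7, an adenylate cyclase, was higher in all 6 libraries at 0.68, and Gnas, the stimulatory G protein subunit, at 0.14. Hhip, a membrane protein that sequesters hedgehog ligands, was at 1.07 and was higher in 5 of 6 libraries.

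The word valve in the working name of these cells was not borne out. Of 6 valve interstitial markers measured, 0 were called, which says little where 0.105% of all genes were called higher. Postn was the most abundant, their median log2 ratio was -0.11, and the sum of all 8 markers of the list was 802, 890.2, 1024, 1280, 1279 and 1212 CPM in members against 754, 1075, 999, 1085, 1077 and 1225 CPM in the other cells. Hapln1, a link protein of valve matrix, had 1.51 CPM in members and 7.16 CPM in the other cells, and Scx, a tendon and valve transcription factor, 4.92 and 19.4 CPM. Tbx20, a heart and valve transcription factor, was at -0.93 and higher in 1 of 6 libraries, and Postn, the matrix protein periostin, was at 0.22. The rule kept cells that pass the cartilage gate, described below, out of members but not out of the other cells. Those cells had 117 CPM of Scx and 183 CPM of Tbx20, and their part in the levels of the other cells was not tested. Among 21 valve and cushion factors measured the median was 0.03, beside 0.03 for all genes tested, and 0 were called. Tcf21, a fibroblast transcription factor, was lowest in that list's ranking with Tbx20, at -0.77, and Prrx2, a mesenchymal homeobox factor, was highest at 0.86.

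Fibroblast markers were at similar levels in both groups. Without Dcn, on which both groups were chosen, the other 8 summed to a median of 35640 CPM in members and 33961 CPM in the other cells. Smooth muscle markers without Myh11 summed to 1330 and 1514 CPM, chondrocyte markers to 202 and 209 CPM with Col2a1, Acan and Matn1 at 0, cardiomyocyte markers to 4.80 and 28.4 CPM, and mesothelial markers to 0 and 1.44 CPM. Pericyte markers summed to 350 and 265 CPM with Higd1b and Vtn at 0. Endothelial markers summed to 61.3, 47.7, 172, 88.5, 62.3 and 41.7 CPM in members of libraries 1 to 6 and 48.0, 40.6, 78.5, 57.4, 52.8 and 31.6 CPM in the other cells, most of it Pecam1, which was higher in all 6 libraries at 0.72, while Cdh5, Vwf, Emcn and Tie1 had a median of 0. The part of endothelial RNA in the values of members was not tested. Doublet scores were not raised: 2.35% of members and 3.54% of the other cells lay among the highest 5% of their library, and such cells were kept.

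Most matrix genes of members were within 2-fold of the other cells, and the counts of called genes below stand beside 0.105% of all genes tested called higher and 1.11% lower. Of 15 collagens outside the fibrillar group 0 were called, but the list had the highest median, 0.26, above 0 in each library. Its 6 type IV collagen genes were higher in every library, from Col4a1 at 0.38 to Col4a3 at 0.87, and Col15a1, a collagen of the basement membrane zone, was at 0.70. In all, 8 genes of that list were higher in every library, where 11.8% of all genes tested were, and 1 was lower. Col18a1, another basement membrane collagen, was at -0.05, and Lamb1, a laminin chain of the basement membrane, was called lower at -1.05, a ratio that was -0.94 without library 2, 3 or 4. Fibrillar collagens (6 measured, 0 called, median 0.15) differed less. Elastic fibre genes had 0 called higher and 1 lower of 22 with a median of -0.10, although Eln, the elastin gene, was at 0.34 and Ltbp2 at 0.93 in all 6 libraries. Proteoglycan and hyaluronan genes had 0 called higher and 2 lower of 24 (median -0.08), namely Epyc at -1.57 and Tnfaip6 at -1.27. Among 18 cartilage and mineral genes outside the gate 0 were called higher and 2 lower (median 0.03), Thbs2 at -2.42 and Thbs1 at -1.61, both thrombospondins. Matrix proteases and inhibitors had 1 called higher, Plaur, and 1 lower of 26 (median -0.09).

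Lists tied to the gate genes and to signalling had few called genes, as had all genes tested, at 0.105% higher and 1.11% lower. Of 12 cystatins and their proteases 0 were called (median 0.06), with Cst3, the main secreted cystatin, at 18225 CPM in members and 12783 CPM in the other cells. Of 6 aldehyde dehydrogenases outside the gate 0 were called higher and 1 lower (median -0.26), Aldh1a1, which makes retinoic acid, at -1.01, a ratio that was -0.95 without library 2, 4 or 6. The retinoic acid pathway, which shares Aldh1a1, had 0 higher and 1 lower of 11 (median -0.12), and 22 targets of NRF2 and AHR, the factors of the antioxidant and xenobiotic responses, had 0 called (median -0.12). TGF-beta and BMP genes had 0 higher and 1 lower of 40 (median 0.05, above 0 in all 6 libraries), with Tgfb1 at 0.57. Dissociation stress genes had 0 called of 26 and a median of -0.07. Hox and GATA factors had 0 higher and 1 lower of 10 (median 0.04). The lower one, Gata4, a cardiac and aortic root factor, reached 7.57, 14.6, 14.97, 21.2, 31.2 and 10.2 CPM in members and 20.0, 35.2, 26.0, 33.0, 33.4 and 28.9 CPM in the other cells, a ratio of -1.03 that was -0.79 without library 1, 2 or 6 and 0.12 with the other cells weighted to the members' neighbour groups. It was called under 12 of 19 alternatives.

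No group of neighbours held members alone. Of 17 groups that neighbour relations gave among all cells under the limits, group 1 took 334 members, 35.6% of them, yet members were 19.5% of its 1716 cells. Its leading genes were Pthlh and Dio2, with Cytl1 and Ltbp2 also among them. Group 6, led by Epha3, Pex5l and Hhip, took 162 members. Among the 15 nearest neighbours of a member, 23.2% were members, against 6.52% for the other cells, and 13.9% of members had no member among them. The gate thus marked cells spread over several groups. Set beside the other cells of the same group, members kept higher Cytl1, at 0.91 within group 1 (2478 against 1202 CPM) and at 1.33 within group 6 (1979 against 788 CPM), while Prss12 was at 0.07 and 0.15. Sfrp1 was lower in every library within both, at -1.50 and -1.42. Wif1 lay under the minimum of 20 CPM within both. It was at -0.01 within group 1 (8.92 against 7.11 CPM, higher in 3 of 6 libraries). Within group 6 it was at -1.82 (0 against 2.86 CPM, higher in 2 of 5 libraries), with library ratios from -2.76 to 3.27. With the other cells weighted to the members' groups, an alternative chosen after seeing the data, 3 genes were higher, Cytl1 and Gm17455 among them, and 16 were lower, 14 of them among the 63. With that weighting Sfrp1, Ccl11, Lpl and, at -1.01, Wif1 were still called lower, and Pth1r, Apoe and C3 did not pass. Igfbp3, Coch, Cd74, H2-Eb1, H2-Aa, C4b, Penk, Cxcl12, Thbs1, Epyc, Tnfaip6, Lamb1, Aldh1a1, Rspo3 and Gata4 also lost their calls.

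Members were also compared by the gate genes they held, which describes the gate's own cells and does not divide all members. Members with Cst6 and without Aldh3a1 (217 cells) and members with Aldh3a1 and without Cst6 (429 cells) were chosen after their values were seen. Another 105 members held both genes and 187 held neither, and these were left out. The sets were compared in libraries 1 to 5, which held at least 20 cells of each, with 200 and 383 of these cells. Library 5 held 26 cells with Cst6 and 20 with Aldh3a1, so low levels there rest on few UMIs. The group shares and median depths below are over all libraries. Of 5626 genes tested, 66 (1.17%) were at least 2-fold higher with Cst6 and 73 (1.3%) at least 2-fold lower. Without library 1 or 2 the lower genes were 115 or 119. The sets also lay in different neighbour groups, with 42.4% of members with Cst6 and 25.9% of those with Aldh3a1 in group 1 and 11.5% and 21.4% in group 6, whose leading genes include Hhip, Prss12 and Ntf3. Groups 3 and 4 also differed in the 2 genes. Group 3, whose leading genes include Has1 and Ptx3, had 51.3 CPM of Cst6 and 12.3 CPM of Aldh3a1. Group 4, whose leading genes include Hhip and Lox, had 1.59 and 58.3 CPM. The part of the neighbour groups in the differences below was not tested. Median depth was 9103 UMIs with Cst6 and 7789 UMIs with Aldh3a1, and its part in these counts was not tested beyond weighting to equal depth, which kept both counts within 1.5 times.

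Prss12 was higher in members with Aldh3a1. It reached 74.3, 49.7, 72.8, 39.4 and 19.2 CPM with Cst6 in libraries 1 to 5 and 158, 217, 161, 191 and 78.8 CPM with Aldh3a1, a log2 ratio of -1.89. The sets did not overlap. Against the other cells under the limits, Prss12 was at -0.02 in members with Cst6 and 2.12 in members with Aldh3a1. Cytl1 was raised in both, at 1.42 and 1.08, although it was lower with Aldh3a1 than in the other cells in 1 of 6 libraries.

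Several single genes, chosen after their values were seen, were higher with Cst6. Inhba, the activin A subunit, reached 71.2 to 114 CPM (median 86.2) against 11.8 to 39.4 CPM (median 30.2) with Aldh3a1, and Tgfb1, the ligand of the receptor mutated in the LDS mice, 118 to 316 CPM (median 219.9) against 70.5 to 103 CPM (median 78.7). Vcan, the large proteoglycan versican of valve matrix, was at 1.43, and Col8a1, a short-chain collagen, at 2.78 (3.54 or 3.43 without library 1, 2 or 5). Nfatc1, a transcription factor of valve development, was at 1.59, 18.5 to 47.9 CPM against 4.44 to 12.9 CPM, and fell under the minimum level without library 3 or 5. Tbx20 was at 2.02, but its level with Cst6 (median 57.0 CPM) did not exceed that of the other cells under the limits (87.5 CPM), where its ratio was -0.18. For Nfatc1, Vcan, Tgfb1 and Inhba the members with Cst6 were also above the other cells in all 5 libraries, at 1.24, 0.89, 1.64 and 1.72. Other valve markers were mixed: against the same cells Scx was at -2.07, Hapln1 at -0.55 and Twist1 at -0.20, higher in 1, 1 and 0 of 5 libraries, and Postn was at 0.57 and Sox9 at 0.30, each higher in 4 of 5.

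Other single genes, chosen in the same way, were higher with Aldh3a1. Ntf3, the nerve growth factor neurotrophin-3, reached 139 to 189 CPM (median 168) with Aldh3a1 and 14.4 to 34.1 CPM (median 28.4) with Cst6, a log2 ratio of -2.58. Hhip reached 124 to 401 CPM (median 166) against 9.49 to 64.5 CPM (median 47.9), a ratio of -2.34. Osr1, a mesenchymal transcription factor, was at -1.81. Eln, at -1.52, and Lox, which cross-links elastin, at -1.61, were both lower with Cst6 in all 5 libraries, whereas Ltbp2, also of the elastic fibre list, was higher with Cst6 in all 5 at 1.43. Against the other cells under the limits, members with Aldh3a1 were higher in all 6 libraries for Ntf3 (0.97), Hhip (1.78), Osr1 (1.04), Eln (0.86) and Lox (0.68). Pthlh itself was found in both sets, with median levels of 254 and 173 CPM.

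**Figure D3:**
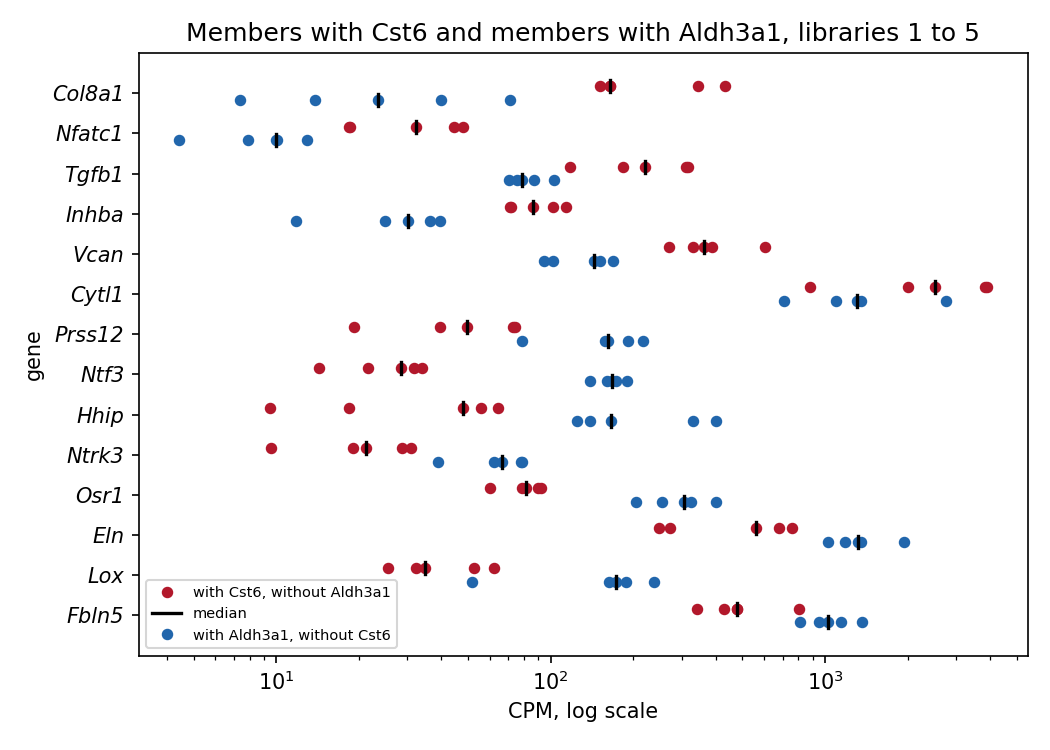
Levels in CPM, on a log axis, of genes in members with Cst6 and without Aldh3a1 and in members with Aldh3a1 and without Cst6; each point is 1 of libraries 1 to 5 and the bar is the median. Ntf3 has medians of 28.4 and 168 CPM.

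Cells that pass the cartilage gate, with at least 3 of the 6 cartilage gate genes and at most 1 of the 4 gate genes numbered 624 with a median depth of 7906 UMIs, and 42 cells passed both gates. Of 5589 genes tested, 130 (2.33%) were at least 2-fold higher in members and 109 (1.95%) at least 2-fold lower, and the median of all genes was 0.10. Cytl1 did not separate these groups: it was found in 52.2% of cartilage-gated cells at 2493 CPM, and its ratio was -0.57. Igfbp5 was at 2.12, with 2171 CPM in members and 452.5 CPM in cartilage-gated cells, and Hhip at 2.92 (2.21 or 3.63 with a library left out), with 153 and 16.8 CPM. On the other side Pth1r was at -3.22, with 12.5 and 96.2 CPM, Wif1 at -4.95 with 24.5 and 974 CPM, and Scx at -4.42 with 4.92 and 117 CPM. Cyp26a1, which breaks down retinoic acid, had a median of 0 CPM in members and 73.7 CPM in cartilage-gated cells. Both groups thus shared Cytl1 and stood on opposite sides for the PTHrP receptor.

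Cytl1 and the gate gene Stk32b are neighbours on chromosome 5. In GENCODE M21 (mm10) Cytl1 (ENSMUSG00000062329) lies at chr5:37735519-37739820 on the plus strand and Stk32b (ENSMUSG00000029123) at chr5:37446825-37717171 on the minus strand, with 18347 bases and 0 protein-coding genes between them, so they are transcribed away from each other. Pthlh (ENSMUSG00000048776) lies at chr6:147252101-147264183 on the minus strand, Cst6 (ENSMUSG00000024846) on chromosome 19 and Aldh3a1 (ENSMUSG00000019102) on chromosome 11. Promoters are shown for the gate genes with an entry and for Cytl1, and the rule itself put Pthlh and Stk32b in the same cells. The sequences are from RefSeq (GRCm38.p6), 250 bases before to 50 after the start, at chr6:147263964-147264263 (minus strand) for Pthlh, chr5:37735269-37735568 (plus strand) for Cytl1 and chr5:37717104-37717403 (minus strand) for Stk32b. Capitals mark matches on either strand to the GC box GGGCGG and to GCGTG, the core of the site of the aryl hydrocarbon receptor (XRE), which may overlap.
Pthlh: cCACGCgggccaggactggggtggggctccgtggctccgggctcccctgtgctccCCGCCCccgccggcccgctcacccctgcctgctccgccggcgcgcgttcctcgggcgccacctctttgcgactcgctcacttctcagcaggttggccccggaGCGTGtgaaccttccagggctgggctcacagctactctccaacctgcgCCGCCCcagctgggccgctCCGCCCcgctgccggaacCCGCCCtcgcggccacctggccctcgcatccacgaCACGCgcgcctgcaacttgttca
Cytl1: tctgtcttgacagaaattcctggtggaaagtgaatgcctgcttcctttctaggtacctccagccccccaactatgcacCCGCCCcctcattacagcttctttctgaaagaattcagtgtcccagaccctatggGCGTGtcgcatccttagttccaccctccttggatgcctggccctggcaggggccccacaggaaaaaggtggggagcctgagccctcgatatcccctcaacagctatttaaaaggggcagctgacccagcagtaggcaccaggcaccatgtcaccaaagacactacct
Stk32b: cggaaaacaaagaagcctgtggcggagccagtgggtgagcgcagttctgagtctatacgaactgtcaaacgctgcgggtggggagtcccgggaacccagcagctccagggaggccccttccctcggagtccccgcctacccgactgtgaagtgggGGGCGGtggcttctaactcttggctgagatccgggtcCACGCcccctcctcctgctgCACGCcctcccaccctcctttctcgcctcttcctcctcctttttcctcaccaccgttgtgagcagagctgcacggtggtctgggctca
The Pthlh promoter held 4 GC boxes and 3 XRE cores, that of Cytl1 1 of each, and that of Stk32b 1 GC box and 2 XRE cores. Of all 32851 promoters in the table, 35.7% held a GC box and 32.4% an XRE core, so these matches are common. The motifs TGACGTCA (in 1.79% of all promoters), TGANTCA (7.81%), TATAAA (13.6%) and AACAAT (10.7%) did not occur in these 3. The table has no entry for Cst6 and Aldh3a1.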

How the data were processed

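The authors deposited 1 matrix of raw UMI counts for 31055 features and 30716 barcodes, aligned to mm10 with Cell Ranger, version 6 by the methods and 4.0.0 in the header of the matrix. Whether depth was equalized between libraries is not stated.

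As in the study's methods, the filter took barcodes with genes above 1000 and below 5000, UMIs above 1500 and below 25000, and a mitochondrial share below 20%. The members and lists were chosen with earlier results of these data known. UMIs were summed per library and group and divided by all UMIs (CPM). To form log2 ratios inside a library, 0.5 UMI in proportion to group size was added to each sum. The median over libraries with at least 20 cells of each group is given, so it need not equal the ratio of median CPM values. A gene was tested with a mean of at least 20 CPM over the groups and called with 1 direction in every library and at least a 2-fold median. The script was tested on simulated data.

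Named genes are the markers and gate genes, the called genes with the 15 largest and 10 smallest ratios, the 2 highest and 2 lowest of each of 19 lists, and the 8 highest and 8 lowest against cartilage-gated cells. Genes outside that rule, and the comparison of members with Cst6 and with Aldh3a1 and the weighting to neighbour groups, were chosen after their values were seen. Some genes that met the rule are not reported here. No test was run because no file pairs a library with a genotype. A list's value is the median over its genes tested. Leukocytes had a UMI of at least 2 of Ptprc, C1qa, C1qb, Cd68, Cd3e and Lyz2 and fewer than 5 Dcn UMIs per 10000. Neighbours were found within scanpy 1.11.5 on 30 principal components of 2000 variable genes, with 15 neighbours and Leiden groups at a resolution of 1.0 (leidenalg 0.10.2, igraph 0.11.9). Doublets were scored with scrublet in each library and kept. Alternatives changed the prior, the minimum level, the normalization, the gate, the comparison cells and the libraries. Intervals are 95% exact binomial intervals and cover counting error only. Other tools were Python 3.11.15, numpy 2.4.6, scipy 1.17.1, pandas 2.3.3, scikit-learn 1.9.0 and matplotlib 3.10.9, and coordinates came from GENCODE M21.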

Additional observations from a re-analysis of the deposited data

Results flagged for a closer look

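Among 100 sets of 6 library values, 8 held a library far from the others. With so many sets some are found by chance, and how many was not tested. The log2 ratio of members over the other cells under the limits was -7.41 for H2-Aa in library 5, where members held 0 UMIs of it, against -2.99 to -1.46 in the other libraries. In library 5 it was also -2.64 for Lpl (-1.83 to -1.38 elsewhere) and 1.02 for Col8a1 (-0.08 to 0.31 elsewhere). Library 2 stood apart for Apoe at -1.73 (-1.32 to -1.14 elsewhere). Library 1 stood apart for Prrx2 at 0.48 (0.84 to 1.02 elsewhere) and for Col4a1 at 0.12 (0.37 to 0.51 elsewhere). Col4a3 was at 0.30 in library 6 (0.75 to 1.01 elsewhere), and Inhba was at -0.07 in library 3 (0.84 to 1.10 elsewhere). The causes were not tested.

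GFP, the tracer named in the labels of 2 mice, gave 48 UMIs in members. It lay under the minimum level, so it entered no count of genes.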

How the results depend on the processing

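Depth limits which cells pass the gate: with cells thinned to 3000 UMIs and shallower ones left out of members and total, the median share of members was 2.56% in place of 8.46%. It was 1.20% with at least 3 of the 4 gate genes and 3.77% with none of the 6 cartilage gate genes. The number of genes higher in members, 6, was 40 with a minimum of 1 CPM, 19 with at least 3 gate genes and also 19 against other cells with none of the 4 gate genes, and 3 with the other cells weighted to the members' neighbour groups, an alternative chosen after seeing the data. Leaving out single libraries gave 6 to 11. The number of lower genes, 63, was 33 with a minimum of 50 CPM, 268 with a minimum of 1 CPM, 103 with at least 3 gate genes and 16 with the weighting to neighbour groups. Cytl1 was called under all 19 alternatives, at 1.07 to 2.11, and moved most with at least 3 gate genes (2.11) and against cells with none of them (2.03). Prss12 and S100a4 were called under 17 alternatives, Gm17455 under 16 and Plaur under 10. Against cartilage-gated cells the higher and lower genes, 130 and 109, were 83 and 58 with a minimum of 50 CPM, and the lower were 164 with at least 3 gate genes. Between members with Cst6 and with Aldh3a1 the counts of 66 and 73 were 34 and 46 with a minimum of 50 CPM, and the lower ranged from 61 to 119 with single libraries left out. Gata4 was at 0.12, the other direction, with the weighting to neighbour groups. A higher minimum tests fewer genes and a lower one more, and the cause of the other changes was not tested. Of 3211 values for 169 named genes, 96 had the other sign, and of 361 values for 19 lists, 20. Ratios were formed within each library. Between genotypes no paired analysis was possible because no file pairs a library with a mouse.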
